A study of Mus musculus with 6 samples.

Results

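The genes described here are 33 that defend cells against oxidants: the NRF2 switch and its regulator, enzymes that make and use glutathione, thioredoxins and peroxiredoxins, the pentose phosphate enzymes that supply NADPH, and suppressors of ferroptosis. They were chosen by symbol, from a list of known functions, and all 33 were found among the 57508 genes of the deposited table. RNA came from KPC1199, a mouse line labelled as pancreatic tumour cells. Of the 6 libraries, 3 carry the genotype WT and 3 carry ACSL5 knockdown, although the titles of the latter read KO. WT libraries are named siACSL5_CY3 and knockdown libraries siACSL5_2260; neither suffix is explained in the labels, nor is the length of the knockdown. ACSL5 is a long-chain acyl-CoA synthetase, and the comparison addresses its function in pancreatic cancer.

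NRF2, encoded by Nfe2l2, is a transcription factor that KEAP1 holds back by directing it to degradation. Oxidants and electrophiles modify KEAP1, and NRF2 then accumulates and binds antioxidant response elements beside genes for glutathione synthesis, thioredoxin reduction and NADPH supply. Because this control acts on the protein, the transcript of Nfe2l2 does not show how active NRF2 is. Ferroptosis is a form of cell death by peroxidation of membrane lipids. GPX4 reduces lipid peroxides with glutathione, and FSP1 (Aifm2), DHODH and GCH1 act beside it.

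Sequences near the members' start sites and in their 3' UTRs are shown as a description of these genes. The core of the antioxidant response element, TGACNNNGC, was searched on both strands in RefSeq windows of GRCm38.p6 that run from 250 bases before to 50 after each start site. Of the 27 members with an entry, 9 held it (33.3%), against 14.0% of 27025 genes. Members can have several windows, and counted by window it was in 9 of 36 (25.0%), against 12.4% of 32851. The members were listed partly as known targets of NRF2, so a higher share among them is not independent of that choice. The 9 genes are Nfe2l2, Srxn1, Gclm, Prdx1, Pgd, Mgst1, Txnrd1, Sod1 and G6pdx. Gclc, Gsr, Abcc1, Gsta4, Prdx6 and Dhodh had no entry. In the examples that follow, capitals mark the match, each is printed on the strand that reads TGAC, and the positions are chr2:75704885-75704913 (minus strand), chr4:116685456-116685484 (minus), chr10:82859104-82859132 (minus), chr3:122245413-122245441 (minus) and chrX:74428919-74428947 (plus), in that order.
Nfe2l2: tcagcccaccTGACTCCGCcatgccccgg
Prdx1: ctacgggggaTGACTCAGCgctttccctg
Txnrd1: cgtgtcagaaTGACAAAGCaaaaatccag
Gclm: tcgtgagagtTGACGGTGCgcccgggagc
G6pdx: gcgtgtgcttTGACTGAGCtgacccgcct

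A second set comes from 3' UTRs annotated in GENCODE M21 on GRCm38. Earlier results of these same libraries had named the overlapping sequences GAACTAC and AACTACA, each of 7 bases, as frequent in transcripts that fell, so their share among fallen genes is not independent evidence. Txnrd1, Tkt, Gclm and Slc7a11 were the members that held at least 1 of them. The windows lie at chr10:82896891-82896917 (plus strand), chr14:30573528-30573554 (plus), chr3:122269152-122269178 (plus) and chr3:50368612-50368638 (minus). Capitals mark the sequence, which in Txnrd1 and Tkt is followed by a further a.
Txnrd1: tgtcccataaGAACTACattcacaggc
Tkt: ctgggtgggtGAACTACacattccagg
Gclm: cattaaatttGAACTACttgaatttaa
Slc7a11: caccataggtAACTACAgttccagggg

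Libraries held between 21794244 and 29996194 expected counts. WT replicate 1 stood apart from the other 5: its correlation with them, over log2(CPM + 1) of all genes, was 0.920 to 0.935, against 0.981 to 0.997 for the other pairs. The numbers of genes and members called are therefore given with all 6 libraries and with the 5 that remain without it. Many fold changes of single genes below are given over the 5 libraries only. Leaving out WT replicate 1 reversed the sign for 10 of the 33 members. Prdx6 was at 0.22 over 5 libraries and -0.27 over 6, Gpx4 at 0.16 and -0.46, and Gss at 0.18 and -0.049. Acsl5, the targeted gene, had 342, 265 and 270 CPM in WT and 49.8, 55.6 and 57.2 CPM in knockdown, so no knockdown library came near a WT library. Its log2 fold change was -2.32 ± 0.064 (SE) over the 5 libraries (edgeR adjusted p = 5.95e-08) and -2.43 over 6, where it was not called (edgeR adjusted p = 0.0619). With either set, p = 0.1 by an exact permutation test (two-sided), the smallest value it can reach. The ductal and epithelial markers Krt8, Krt18, Krt19, Epcam and Cdh1 summed to 8463 to 8993 TPM in WT and 7799 to 8523 TPM in knockdown. Nearly all of this sum was Krt8, Krt18 and Krt19. Cdh1 was higher in knockdown (126 to 131 TPM, against 37.2 to 95.7), and Epcam overlapped (30.8 to 35.2 TPM, against 33.4 to 38.8). Acinar markers (6.23 to 9.88 TPM in WT, 12.4 to 14.7 in knockdown, 2 of 4 at 0 throughout), fibroblast markers (2.05 to 6.72 and 8.32 to 9.52, none of 4 at 0 throughout) and immune markers (3.42 to 6.53 and 7.16 to 8.49, 1 of 3 at 0) summed higher in knockdown. Nearly all of the acinar sum was Cela1 and of the immune sum Cd68, while Amy2a1, Ptf1a and Adgre1 were at 0 and Ptprc was at most 0.03 TPM. Of the fibroblast genes, Pdgfrb was higher in knockdown (5.61 to 6.85 TPM, against 1.13 to 3.9), Col1a1 was not (2.62 to 2.68, against 0.92 to 3.16), and Dcn was at most 0.03 TPM. The part of other cells in the results was not tested. Endothelial markers summed to at most 0.12 TPM. In bulk RNA, fewer cells of a kind and less RNA per cell cannot be told apart.

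Over 6 libraries, no member was called at an edgeR adjusted p below 0.05, and neither was any of the 14679 genes tested (0%). At an unadjusted p below 0.05, 2 of 33 members passed, Tkt and Gch1, against 16% of all genes tested. DESeq2 on the same libraries called no member and 4.71% of the genes it tested. All knockdown libraries lay above all WT libraries for 4 members (12.1%, against 18.7% of all genes): Keap1, Gsr, Srxn1 and Pgd. All lay below for 5 members (15.2%, against 15.6%): Prdx1, Prdx2, Taldo1, Tkt and Gch1. These shares are near or under those of all genes.

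Without WT replicate 1, 14 of the 33 members were called (42.4%), where 34.3% of 15152 genes tested were called. Keap1, Gss, Glrx, Srxn1 and Prdx6 were higher in knockdown, 15.2% of members against 16.3% of all genes. Slc7a11, Gclc, Abcc1, Txnrd1, Prdx1, Prdx2, Taldo1, Tkt and Cat were lower, 27.3% of members against 18% of all genes. All 33 members passed the filter on low counts in both fits. Their log2 fold changes ran from -0.76 to 0.65 with a median of -0.002, and the median of all genes was -0.009, so no member changed by as much as 1 on the log2 scale. With a GC trend removed from each library, the split was 7 higher and 6 lower, where it is 5 and 9 here. Of all genes, 2375 were then higher and 2418 lower, against 2471 and 2722 here. On either TPM scale 7 members were called, with 2467 genes on log2(TPM + 1) and 2569 on log2(TPM + 0.1), against 5193 here. Without knockdown replicate 1, 19 members were called, 11 higher and 8 lower. Of all genes, 6188 were called in that setting, 3154 higher and 3034 lower. Fewer members, and fewer of all genes, were called without WT replicate 2 or WT replicate 3, where 1 WT library is left. Txnrd1, Tkt, Gclc, Cat and Keap1 were called, in the same direction, in each of the 13 other settings tried for the 5 libraries. The members whose promoter window held the response element core shared no direction: Srxn1 rose, Prdx1 and Txnrd1 fell, and the other 6 were not called.

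**Figure D1:**
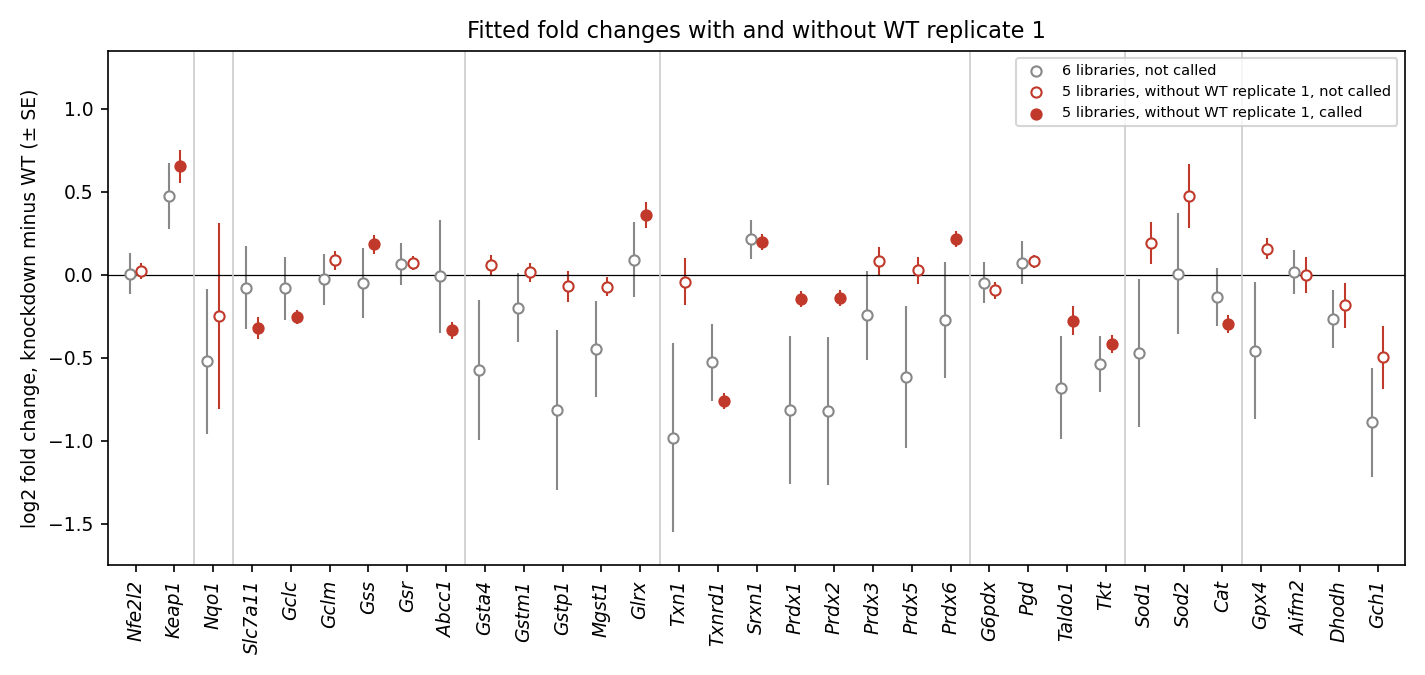
Log2 fold change (knockdown minus WT, with its SE) of the 33 genes, on the vertical axis, with all 6 libraries in grey and without WT replicate 1 in red, where filled points passed an edgeR adjusted p below 0.05. No grey point is filled, and the red points run from -0.76 for Txnrd1 to 0.65 for Keap1.

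Nfe2l2 itself was level. It lay at 237, 215 and 229 CPM in WT and at 223, 233 and 228 CPM in knockdown, and the groups overlapped (log2 fold change 0.023 ± 0.049 over 5 libraries, edgeR adjusted p = 0.758). Keap1, the inhibitor, was the member that rose most. Its level was 81.3, 61.2 and 52.6 CPM in WT and 100.04, 81.7 and 89.7 CPM in knockdown, and the log2 fold change over 5 libraries was 0.65 ± 0.098 (edgeR adjusted p = 0.00227). WT replicate 1 lay just under the lowest knockdown library, and with it the change was 0.48 ± 0.20 (edgeR adjusted p = 0.316). Per length, the TPM ratio of Keap1 to Nfe2l2 was 0.229, 0.207 and 0.164 in WT and 0.326, 0.255 and 0.291 in knockdown, so all 3 knockdown libraries lay above all 3 WT libraries. An annotated antisense gene, Gm16754, overlaps Keap1 with a mean of 42.8 expected counts against 1920 for Keap1. Nqo1, the quinone reductase commonly used to read NRF2 activity, was listed at 0.29 to 0.49 TPM, the lowest of the members, and no difference was detectable at this depth (edgeR adjusted p = 0.774 over 5 libraries).

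Cystine import and glutathione synthesis moved in both directions. Slc7a11, the cystine carrier of the xCT exchanger, had 142 and 143 CPM in WT replicates 2 and 3, against 127, 113 and 106 CPM in knockdown. The fall was -0.32 ± 0.066 on the log2 scale (edgeR adjusted p = 0.00424), but WT replicate 1, at 80.5 CPM, lay below all knockdown libraries. Slc7a11 is not called on log2(TPM + 1) (limma adjusted p = 0.0571), after removal of a trend with GC content (-0.18, edgeR adjusted p = 0.0560) or without WT replicate 3. Gclc, the catalytic subunit of glutamate-cysteine ligase, had 380 and 384 CPM in those WT libraries and 322, 328 and 321 CPM in knockdown. It fell by 0.26 on the log2 scale (SE 0.042, edgeR adjusted p = 0.000984), again with WT replicate 1 lower, at 262 CPM. Gclm, the modifier subunit of the same enzyme, had 92.8 and 91.3 against 93.9, 101 and 102 CPM and was not called (0.086 ± 0.057, edgeR adjusted p = 0.272). It was called higher with a GC trend removed (0.22, edgeR adjusted p = 0.0142) and without knockdown replicate 1 (0.14, edgeR adjusted p = 0.0269).

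Per length, the TPM ratio of Gclc to Gclm was 1.54 and 1.65 in WT replicates 2 and 3, against 1.26, 1.05 and 0.984 in knockdown, with 0.768 in WT replicate 1. Gss, which adds glycine in the last step of synthesis, had 94.8 and 89.8 CPM in WT and 102, 108 and 107 CPM in knockdown (0.18 ± 0.056, edgeR adjusted p = 0.0267). WT replicate 1, at 144 CPM, was above them all, and the reverse-strand gene Acss2 overlaps Gss. The call of Gss is lost on either TPM scale and when WT replicate 2, WT replicate 3, knockdown replicate 2 or knockdown replicate 3 is left out. Gsr, which regenerates reduced glutathione, had 291, 281 and 273 CPM in WT and 295, 296 and 293 CPM in knockdown, a narrow separation that was not called (edgeR adjusted p = 0.212). Abcc1, a pump that exports glutathione and its conjugates, had 289 and 290 CPM in WT and 222, 243 and 231 CPM in knockdown, a fall of -0.33 ± 0.051 (edgeR adjusted p = 0.000665). In WT replicate 1 it was at 121 CPM, the lowest of the 6, and the call is lost on either TPM scale.

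Of the 5 enzymes that use glutathione, 1 was called (20%, against 34.3% of all genes). Glrx, a glutaredoxin that reduces disulfides with glutathione, had 21.5 and 21.4 CPM in WT replicates 2 and 3, against 26.95, 28.1 and 28.4 CPM in knockdown (0.36 ± 0.079, edgeR adjusted p = 0.00528). WT replicate 1 had 35.4 CPM, above every knockdown library, and without WT replicate 3 the call is lost. The transferases Gsta4, Gstm1, Gstp1 and Mgst1, which couple glutathione to electrophiles, had log2 fold changes from -0.070 to 0.059 over 5 libraries and overlapping groups. Gsta4 was called higher without knockdown replicate 1 (0.12, edgeR adjusted p = 0.0262). In WT replicate 1 these 4 were far higher, for example 886 CPM of Gstp1 against 245 to 301 CPM in the other 5 libraries. Gstm1 has the near copies Gstm2 and Gstm7, so reads could be shared between them.

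**Figure D2:**
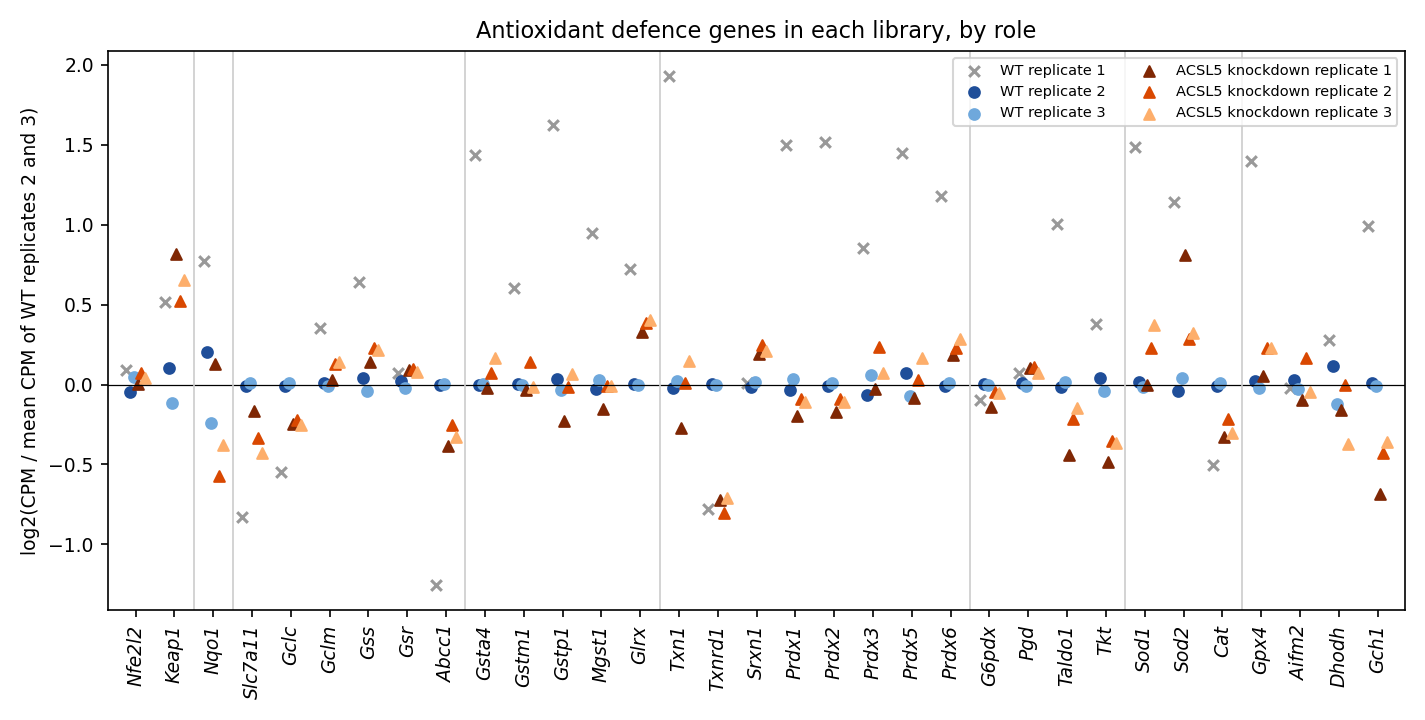
Level of each of the 33 genes in each library, as log2 CPM minus the mean of WT replicates 2 and 3 on the vertical axis, with WT and knockdown libraries marked separately and genes ordered by role along the horizontal axis. WT replicate 1 stands far from the others for Gstp1, Txn1 and Prdx1, while Txnrd1 has WT replicate 1 among the knockdown libraries.

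In the thioredoxin system, the reductase fell and its substrate did not pass the test. Txnrd1, the cytosolic thioredoxin reductase that uses NADPH, had 180 and 179 CPM in WT replicates 2 and 3, against 109, 103 and 110 CPM in knockdown, or 59.7% of the WT mean. This was the largest change of any member, -0.76 ± 0.048 on the log2 scale (edgeR adjusted p = 4.34e-06). WT replicate 1 had 105 CPM and lay within the knockdown range, and over 6 libraries the value was -0.53 ± 0.23 (edgeR adjusted p = 0.339). Txn1, thioredoxin itself, had 245 and 252 CPM in those WT libraries, 206, 250 and 275 CPM in knockdown and 946 CPM in WT replicate 1, with no order between the groups. The TPM ratio of Txnrd1 to Txn1 was 0.185 and 0.181 in WT replicates 2 and 3, against 0.142, 0.102 and 0.095 in knockdown. In WT replicate 1 it was 0.028, below all others.

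Srxn1, sulfiredoxin, which rescues over-oxidised peroxiredoxins, had nearly the same CPM in all WT libraries. The values were 111, 109 and 111 CPM in WT and 125, 130 and 127 CPM in knockdown, so every knockdown library was above every WT library. The rise was 0.20 ± 0.048 over 5 libraries (edgeR adjusted p = 0.00892) and 0.21 ± 0.12 over 6 (edgeR adjusted p = 0.406). The call is lost without WT replicate 2 or without WT replicate 3.

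The peroxiredoxins, which reduce peroxides with a reactive cysteine, did not move together. Prdx1, a cytosolic form and the second most abundant member per length, had 779 and 814 CPM in WT and 695, 749 and 740 CPM in knockdown, with 2248 CPM in WT replicate 1. Prdx2, also cytosolic, had 173 and 175 against 154, 163 and 161 CPM, with 498 CPM in WT replicate 1. Both falls were small, -0.15 ± 0.050 (edgeR adjusted p = 0.0429) and -0.14 ± 0.048 (edgeR adjusted p = 0.0471), and neither call outlasted DESeq2 size factors or the removal of a GC trend, where Prdx1 was at -0.013. Both calls are lost on TPM, where Prdx1 was at -0.25 and Prdx2 at -0.013 on log2(TPM + 1), and that of Prdx2 with DESeq2 and with no filter. With the replicate number as a block, the call of Prdx2 is lost too (edgeR adjusted p = 0.0718). Both calls are also lost when WT replicate 2, WT replicate 3, knockdown replicate 2 or knockdown replicate 3 is left out, and that of Prdx2 without knockdown replicate 1. Prdx6, which also reduces phospholipid peroxides, was 194 and 197 CPM in WT and 222, 229 and 238 CPM in knockdown, a rise of 0.22 ± 0.049 (edgeR adjusted p = 0.00608). WT replicate 1 held 443 CPM of it, and the call is lost on TPM and without WT replicate 2 or WT replicate 3. Prdx3 of the mitochondrion and Prdx5 had overlapping groups and log2 fold changes of 0.083 and 0.027, and Prdx3 was called higher without knockdown replicate 1 (0.16, edgeR adjusted p = 0.0440). Prdx2 overlaps Rnaseh2a and Junb on the opposite strand, and Prdx5 overlaps Trmt112, and no source used here says whether counting used strand.

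Of the 4 pentose phosphate members, 2 were called over 5 libraries, both lower (50%, against 18% of all genes). G6pdx and Pgd, the 2 dehydrogenases of the oxidative branch that form NADPH, were not called by edgeR in that fit. G6pdx had 191, 205 and 204 CPM in WT and 186, 198 and 197 CPM in knockdown (-0.094 ± 0.049 over 5 libraries, edgeR adjusted p = 0.173). Pgd had 438, 419 and 415 against 449, 451 and 439 CPM (0.081 ± 0.041, edgeR adjusted p = 0.156), and with a GC trend removed it was called higher (0.13, edgeR adjusted p = 0.0330). Tkt and Taldo1, transketolase and transaldolase of the non-oxidative branch, were the called pair.

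Tkt had 645, 510 and 483 CPM in WT and 355, 389 and 385 CPM in knockdown, and every knockdown library was below every WT library. Its log2 fold change was -0.41 ± 0.055 over 5 libraries (edgeR adjusted p = 0.000295) and -0.54 ± 0.17 over 6 (edgeR adjusted p = 0.232). Taldo1 had 233, 115 and 117 CPM in WT and 85.7, 99.8 and 105 CPM in knockdown, also without overlap (-0.28 ± 0.087, edgeR adjusted p = 0.0431). The Taldo1 call is lost on either TPM scale and without WT replicate 2, WT replicate 3 or knockdown replicate 2, and the value is -0.18 without knockdown replicate 1.

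Of catalase and the 2 superoxide dismutases, Cat was called by edgeR over 5 libraries, 1 of 3 where 34.3% of all genes were. Catalase, which breaks down hydrogen peroxide, had 87.6 and 88.7 CPM in WT and 70.4, 76.0 and 71.3 CPM in knockdown (-0.30 ± 0.054, edgeR adjusted p = 0.00198), with WT replicate 1 lower than all, at 62.2 CPM. Sod1, the cytosolic superoxide dismutase, was at 365 and 358 against 360, 423 and 468 CPM and was not called (0.19 ± 0.13, edgeR adjusted p = 0.317). It was called higher with no filter, with a length trend removed (0.22, edgeR adjusted p = 0.00283) and without knockdown replicate 1 (0.30, edgeR adjusted p = 3.5e-05). The same held with the replicate number as a block (0.29, edgeR adjusted p = 0.000902). Sod2, the mitochondrial form, was at 57.4 and 60.6 against 103, 72.0 and 73.7 CPM. Knockdown replicate 1 was the highest of these and the value, 0.47 ± 0.19, was not called by edgeR (adjusted p = 0.149). DESeq2 called it, at 0.49 (adjusted p = 0.00426), and so did edgeR without knockdown replicate 1, at 0.30 (adjusted p = 0.000139). With the replicate number as a block, edgeR also called it, at 0.30 (adjusted p = 0.00153).

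None of the 4 ferroptosis suppressors was called by edgeR over 5 libraries, where 34.3% of all genes were. Gpx4 had 217 and 210 CPM in WT replicates 2 and 3, against 221, 251 and 251 CPM in knockdown, with 564 CPM in WT replicate 1 (0.16 ± 0.064 over 5 libraries, edgeR adjusted p = 0.0877). It was called higher with no filter (0.17), with a length trend removed (0.14, edgeR adjusted p = 0.0456) and without knockdown replicate 1 (0.23, edgeR adjusted p = 8.0e-05). The same held with the replicate number as a block (0.22, edgeR adjusted p = 0.002). With a GC trend removed it was -0.18 and not called, so its direction depends on that setting. Gch1, the first enzyme of tetrahydrobiopterin synthesis, was a low transcript with 8.57, 4.34 and 4.29 CPM in WT and 2.69, 3.21 and 3.36 CPM in knockdown. Its groups did not overlap, but the fold change of -0.50 ± 0.19 missed the threshold (edgeR adjusted p = 0.0663). Aifm2, which reduces coenzyme Q at the plasma membrane, and Dhodh, which does so in the mitochondrion, had log2 fold changes of -0.0015 and -0.18 over 5 libraries with overlapping groups.

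Levels per length spanned a wide range. Averaged over the 5 libraries, Sod1 (1456 TPM) and Prdx1 (1064 TPM) led, followed by Gstp1 (767), Gsta4 (529), Gpx4 (507) and Txn1 (495). The ranges of Sod1 (1281 to 1638 TPM) and Prdx1 (777 to 1205 TPM) did not overlap, while those of Gsta4, Gpx4 and Txn1 did. Gch1 (2.02 TPM) and Nqo1 (0.388 TPM) were the lowest. The members together made up 0.798% and 0.792% of all TPM in WT replicates 2 and 3, against 0.747%, 0.842% and 0.858% in knockdown, so the groups overlapped, and 1.06% in WT replicate 1.

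**Figure D3:**
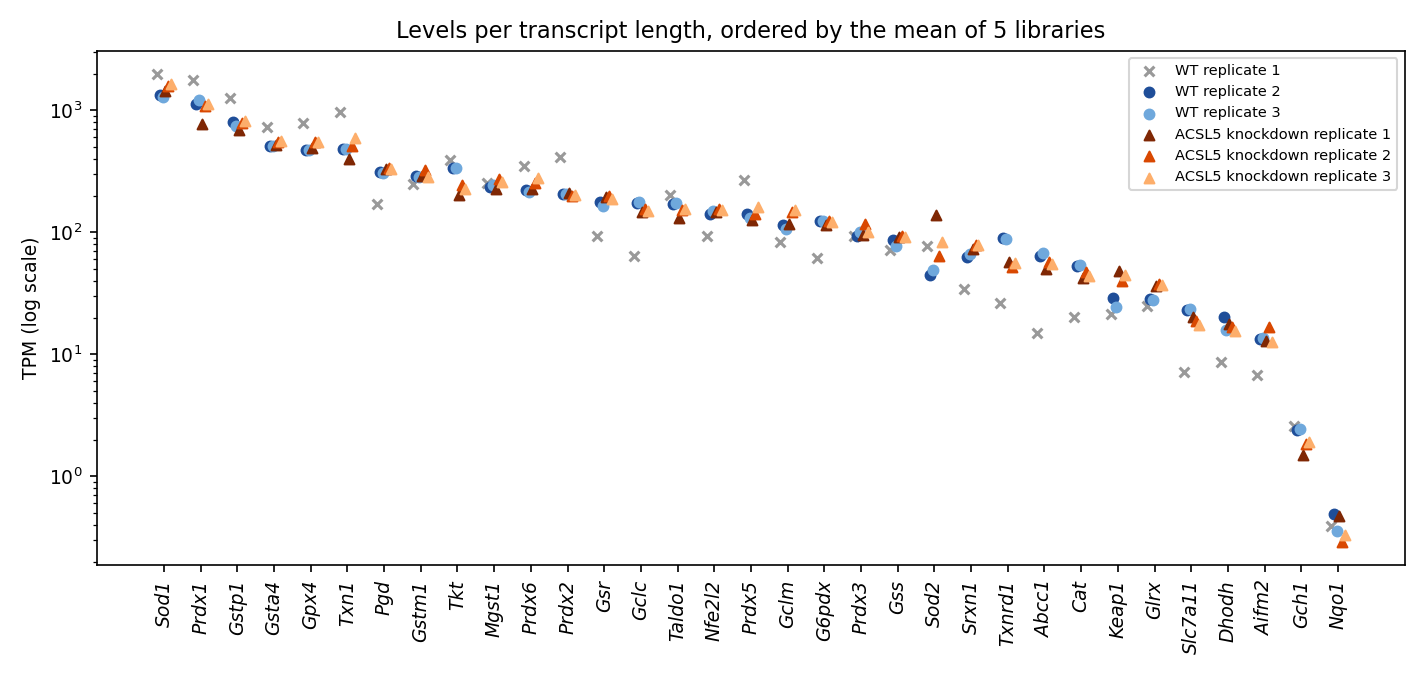
TPM of the 33 genes on a log axis, 1 point per library, ordered by the mean of the 5 libraries. The levels run from 1456 TPM for Sod1 down to 0.388 TPM for Nqo1.

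The distance of WT replicate 1 from the other WT libraries followed gene length. Over the 33 members, the log2 ratio of WT replicate 1 to the mean of WT replicates 2 and 3 had a Pearson correlation of -0.681 and a Spearman correlation of -0.631 with log2 length, as a description across genes of the same libraries. Over 14447 genes the values were -0.512 and -0.601. Of 13 members under 1500 bases, 12 were higher in WT replicate 1, with a median log2 ratio of 1.005. Of 11 members of at least 2500 bases, 5 were, with a median of -0.096. The members have a median length of 2039 bases against 2709 for all genes tested. This moved with the members' medians: -0.24 over 6 libraries and -0.002 over 5, and the part of library quality in it was not tested. A relation to length remained without WT replicate 1. Over the 33 members, the log2 fold change over 5 libraries had correlations of -0.284 (Pearson) and -0.361 (Spearman) with log2 length. Over 6 libraries they were 0.371 and 0.318.

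**Figure D4:**
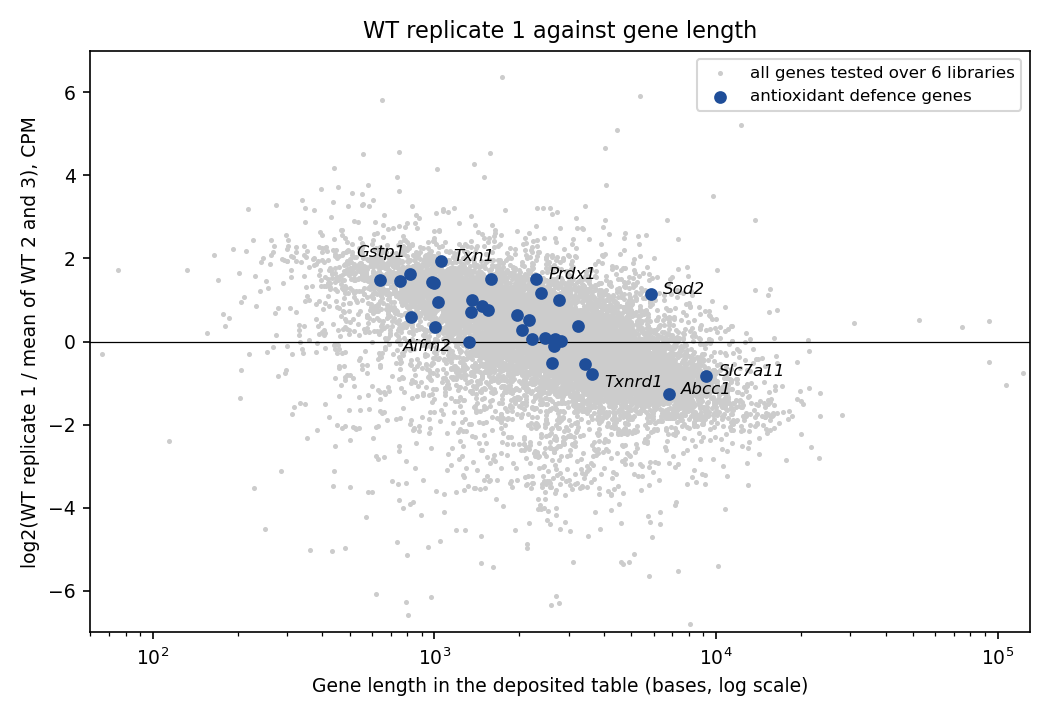
Log2 ratio of WT replicate 1 to the mean of WT replicates 2 and 3 (vertical axis, CPM) against gene length in bases (log axis), for all genes tested over 6 libraries in grey and the 33 members in blue. Short members such as Txn1 and Gstp1 lie above 0 and the long Abcc1, Slc7a11 and Txnrd1 below it.

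Among 12348 genes with a 3' UTR in that annotation that spans 50 bases or more, 327 (2.65%) held the 8-base sequence GAACTACA, and Txnrd1 and Tkt were the members among them. Of the 9 members called lower, these have the 2 most negative fold changes. Gch1, which was not called and held neither 7-base sequence, was at -0.50, below Tkt. Of the 327 genes, 47.7% fell and 4.9% rose over 5 libraries, against 19.6% and 19% of genes without it. The sequence was taken up from earlier results of these same libraries, so this contrast is not independent evidence. The 2 sets of genes were not matched for the length of the 3' UTR. Either 7-base sequence was in 13.0% of genes, and in 4 members, which had log2 fold changes of -0.76 (Txnrd1), -0.41 (Tkt), -0.32 (Slc7a11) and 0.086 (Gclm, not called). The sequence GAACTAC also occurs at 2 positions of the coding sequence of Acsl5, from bases 1615 and 2273 of a transcript of 4243 bases. At base 1615 it is followed by an a, which completes GAACTACA, and at base 2273 by a t. The 3' UTR of Acsl5 held AACTACA at 1 position and did not hold GAACTAC. Taken with its flanking bases, the match at base 1615 spans an exon junction, whose place within that stretch was not determined. The part of these sequences in any fall was not tested.

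**Figure D5:**
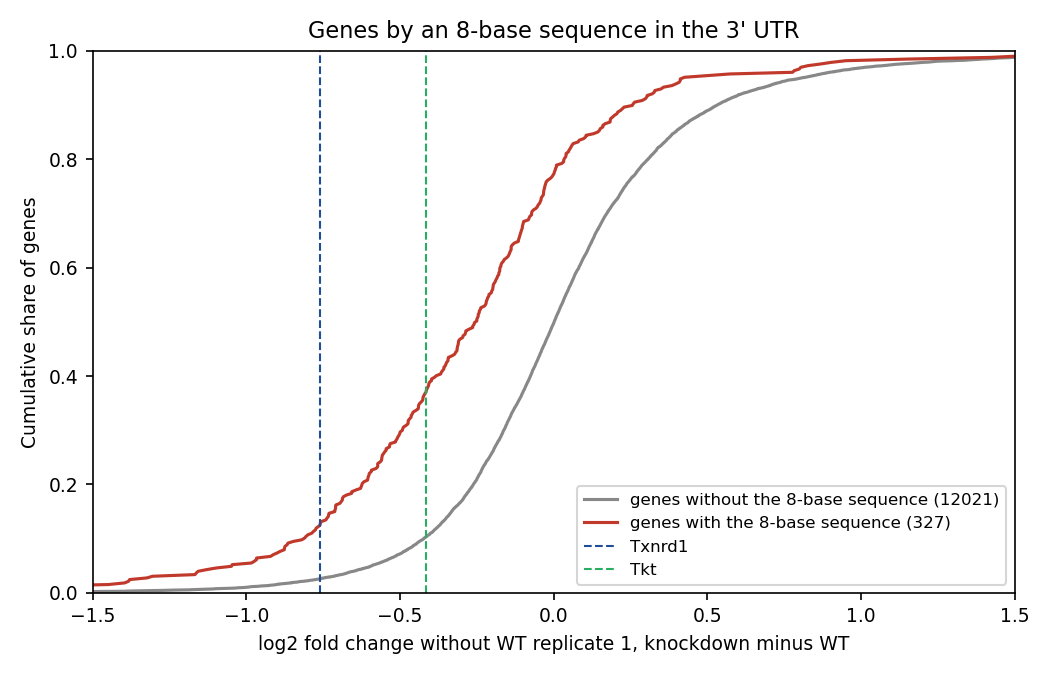
Cumulative share of genes (vertical axis) by log2 fold change over the 5 libraries (horizontal axis), for the 327 genes with the 8-base sequence GAACTACA in the 3' UTR in red and the 12021 genes without it in grey. Dashed lines mark Txnrd1 at -0.76 and Tkt at -0.41, and the red curve lies left of the grey over most of the range drawn. The sequence was taken up from earlier results of these same libraries, so the shift is not independent evidence.

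Beyond the members, 93 other genes of the same systems were listed by role, in 6 lists, and 90 were tested. Over 6 libraries edgeR called none of them and DESeq2 called 10, 3 higher and 7 lower. Of all genes it tested, DESeq2 called 4.71%, 376 higher and 350 lower. Over 5 libraries, 19 rose, 21 fell and 50 were not called, 44.4% called where all genes gave 34.3%. The NRF2 regulators had 2 higher and 1 lower of 8 (25.0% and 12.5%, against 16.3% and 18% of all genes). Sqstm1, the autophagy receptor that sequesters KEAP1, rose by 0.50, Mafk, a partner of NRF2 on DNA, by 0.31, and the related factor Nfe2l1 fell by 0.18 on the log2 scale. The calls of Mafk and Nfe2l1 are lost on TPM and without WT replicate 2 or WT replicate 3, and that of Mafk also without knockdown replicate 3, with DESeq2 (adjusted p = 0.0559) and with a GC trend removed (0.17, edgeR adjusted p = 0.216). With the replicate number as a block, Mafk is not called either (0.23, edgeR adjusted p = 0.0796). WT replicate 1 had 558 CPM of Sqstm1, above 2 of the 3 knockdown libraries, and 265 CPM of Nfe2l1, below all 3. Other NRF2 targets had 7 higher and 1 lower of 15 (46.7% and 6.7%).

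Osgin1, a stress-induced gene, went from 12.0 and 9.9 CPM to 23.5, 25.5 and 25.7 CPM (1.18, edgeR adjusted p = 3.99e-05), with WT replicate 1 at 9.28 CPM. Blvrb, biliverdin reductase B, rose by 1.01 and Ephx1, microsomal epoxide hydrolase, by 0.87 (edgeR adjusted p = 1.85e-05 and 2.34e-06). For all 3 of these genes every knockdown library lay above every WT library, as for 18.7% of all genes tested over 6 libraries. For Blvrb the gap was narrow, with 47.4 CPM in WT replicate 1 and 49.7 CPM in knockdown replicate 1. Over 6 libraries none of the 3 was called by edgeR. Osgin1 was then at 1.26 (edgeR adjusted p = 0.0878), Blvrb at 0.67 (edgeR adjusted p = 0.310) and Ephx1 at 0.69 (edgeR adjusted p = 0.184). Txnrd1, a member usually listed as an NRF2 target, went the other way.

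Glutathione genes outside the member list had 3 higher and 5 lower of 19 (15.8% and 26.3%, against 16.3% and 18% of all genes). Slc3a2, the heavy chain that partners Slc7a11 in the exchanger, went from 171 and 167 CPM to 306, 297 and 317 CPM (0.84, edgeR adjusted p = 2.63e-06), opposite to Slc7a11. WT replicate 1 had 316 CPM of it, within the knockdown range. Gstm2 fell by 0.85 and Mgst2 by 0.56. Thioredoxin and peroxidase genes had 3 higher and 4 lower of 20 (15% and 20%, near those shares), among them falls of Gpx8 (-0.89), Txnrd2, the mitochondrial thioredoxin reductase (-0.74), and Sesn3 (-0.67). WT replicate 1 had 16.1 CPM of Sesn3, below every knockdown library.

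NADPH genes had 0 higher and 4 lower of 9 (0% and 44.4%, against 16.3% and 18% of all genes). Rpe, the epimerase of the non-oxidative pentose phosphate branch, fell by 0.50, mitochondrial isocitrate dehydrogenase Idh2 by 0.28 and the NAD kinase Nadk by 0.21. The 3' UTRs of Rpe and Sesn3 held the 8-base sequence GAACTACA, as did those of the members Txnrd1 and Tkt. Its part in the falls of Rpe and Sesn3 was not tested. On TPM, Rpe, Nadk, Mgst2, Txnrd2 and Sesn3 are not called, with Nadk at -0.056, Mgst2 at -0.078 and Sesn3 at -0.42 on log2(TPM + 1), and Nadk is not without WT replicate 2. Other ferroptosis genes had 4 higher and 6 lower of 19 (21.1% and 31.6%). Coq2, an enzyme of coenzyme Q synthesis, had 24.8 and 23.6 CPM in WT and 11.3, 12.2 and 10.9 CPM in knockdown (-1.09, edgeR adjusted p = 2.73e-05). WT replicate 1 had 39.9 CPM of it, so every knockdown library lay below every WT library, as for 15.6% of all genes. Over 6 libraries Coq2 was at -1.35 and was not called (edgeR adjusted p = 0.109). Mboat2, a phospholipid acyltransferase, fell by 0.62. Ptgs2, cyclooxygenase 2, a transcript often measured in ferroptosis, went from 143 and 141 CPM to 235, 236 and 225 CPM (0.69, edgeR adjusted p = 5.4e-06), with 80.6 CPM in WT replicate 1.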

How the data were processed

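The authors deposited 2 tables: gene-level expected counts (estimated counts, of which 10.1% to 13.0% per library were not whole) and TPM. Per the submitters' processing notes, the tools were HISAT2, fastp, DESeq2 and StringTie (no versions) and the builds hg38 and GRCh38, while gene identifiers are those of mouse; strandedness is not stated in any source used. Counts were rounded, filtered with filterByExpr, scaled by TMM and tested by edgeR 4.0.16 (quasi-likelihood F, robust, R 4.3.3), two-sided, with Benjamini-Hochberg adjustment over all genes tested and a threshold of 0.05; the standard error is the log2 fold change over the root of F. CPM values are scaled by TMM. The fit was made with 6 libraries and with 5, without WT replicate 1. Members and lists were chosen with earlier results of these data known. Named are all members, Acsl5 and, from each of 6 lists, up to 3 called genes averaging 5 CPM or more, those that changed most. Alternatives were DESeq2 1.42.0 and its size factors, no filter, limma 3.58.1 on log2(TPM + 1) and log2(TPM + 0.1), removal of a length or GC trend (lowess, span 0.3), the replicate number as a block, and each library left out. The main edgeR test was tried on simulated data for both sets of libraries, and the alternatives were not. No label says that libraries are separate cultures, so p-values measure the spread between libraries, which may be technical. Gene positions and 3' UTRs are from GENCODE M21.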

Additional observations from a re-analysis of the deposited data

How the results depend on the processing

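The calls rest on leaving out WT replicate 1. Over 6 libraries the number of genes called was 0, and it was 4 with no filter, 726 with DESeq2 and 879 after removal of a length trend, where leaving out each library gave 0 to 5193. Members called were 0, and 0 to 14 with 1 library fewer. For the other pathway genes it was 10 with DESeq2, 12 with the length trend removed and 0 to 40 with 1 library fewer. The Acsl5 fold change over 6 libraries was -2.40 with no filter (edgeR adjusted p = 0.0164), -2.44 with DESeq2 (adjusted p = 2.92e-32) and -2.50 to -2.32 with 1 library fewer.

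Over 5 libraries, 5193 genes and 14 members were called, and 2467 genes and 7 members were called on log2(TPM + 1), with 2569 and 7 on log2(TPM + 0.1). Leaving out each library gave 2599 to 6188 genes, 6 to 19 members and 25 to 49 other pathway genes; the members were 8 without WT replicate 2 and 6 without WT replicate 3, fits in which the spread of the single WT library left is borrowed from the knockdown group. Of members, 7 were higher and 6 lower after GC trend removal, against 5 and 9. Of all genes, 2375 were higher and 2418 lower, against 2471 and 2722. Deviations of same-numbered libraries from their group means had correlations of -0.115, 0.020 and -0.142. The WT mean includes WT replicate 1, which stood apart, so these values cannot tell whether the numbers pair libraries. With the replicate block, no gene was called over 6 libraries and 5753 genes and 16 members over 5.

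Over 6 libraries, values of opposite sign arose as listed here. On log2(TPM + 1) and log2(TPM + 0.1), in that order, the median of all genes was itself 0.26 and 0.30, against -0.02 on counts, and values were 0.22 and 0.25 for Slc7a11, 0.27 and 0.27 for Gclc, 0.46 and 0.46 for Gclm, 0.24 and 0.24 for Gss, 0.41 and 0.42 for Abcc1, 0.13 and 0.13 for Gstm1, 0.042 and 0.043 for Mgst1, 0.13 and 0.13 for Prdx3, 0.29 and 0.29 for G6pdx, 0.053 and 0.053 for Sod1, 0.19 and 0.20 for Cat, 0.23 and 0.25 for Dhodh, and 0.27 and 0.27 for Nadk. With the length trend removed they were 0.25 for Gclm, 0.069 for Gss, 0.16 for Gstm1, 0.12 for Sod1 and -0.39 for Sod2. With the GC trend removed they were 0.012 for Slc7a11, 0.049 for Gclm, -0.024 for Aifm2 and -0.012 for Nfe2l1. With no filter they were 0.0053 for Gclm and 0.0023 for Abcc1, and with the replicate block 0.092 for Abcc1. With DESeq2 they were -0.00063 for Nfe2l2 and -0.00033 for Sod2, and with its size factors -0.0065 and -0.011.

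Leaving out each library over 6 gave, as lowest and highest value, -0.33 and 0.18 for Abcc1, -0.063 and 0.065 for Aifm2, -0.26 and 0.0077 for Gclc, -0.10 and 0.086 for Gclm, -0.042 and 0.36 for Glrx, -0.71 and 0.16 for Gpx4, -0.18 and 0.18 for Gss, -0.82 and 0.059 for Gsta4, -0.31 and 0.016 for Gstm1, -0.18 and 0.19 for Nfe2l1, -0.025 and 0.023 for Nfe2l2, -0.40 and 0.083 for Prdx3, -0.89 and 0.027 for Prdx5, -0.48 and 0.22 for Prdx6, -0.32 and 0.050 for Slc7a11, -0.73 and 0.19 for Sod1, and -0.19 and 0.47 for Sod2.

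Over 5 libraries no called member changed direction under any setting. Members that were not called did so. Aifm2 was at 0.0082 with DESeq2, 0.0095 with its size factors, 0.015 with no filter, 0.043 and 0.045 on the TPM scales and 0.051 with the replicate block. With the GC trend removed, Gstm1 was at -0.031, Mgst1 at 0.029, Txn1 at 0.023, Prdx5 at -0.11 and Gpx4 at -0.18. On log2(TPM + 1) and log2(TPM + 0.1), Mgst1 was at 0.071 and 0.071 and Txn1 at 0.030 and 0.030, and with the replicate block Gstp1 was at 0.018 and Txn1 at 0.070. Leaving out each library gave, as lowest and highest value, -0.078 and 0.066 for Aifm2, -0.032 and 0.065 for Gstm1, -0.12 and 0.027 for Gstp1, -0.025 and 0.068 for Nfe2l2, -0.046 and 0.10 for Prdx5, and -0.13 and 0.080 for Txn1. The cause of these changes was not tested.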
